A study of Homo sapiens with 6 samples.

Results

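The PIM kinases are encoded by 3 genes, PIM1, PIM2 and PIM3, which were taken from the deposited tables by gene name, 3 of 60325 gene rows. All 3 had a value in every library. Gene expression was measured by RNA-seq of total RNA in THP-1, a single human cell line grown from an acute monocytic leukaemia and often used in place of blood monocytes. Cells given recombinant human interleukin-6 (IL-6) were collected at 6, 24 and 48 h, and cells labelled as controls at the same times, with 1 library for each of the 6 conditions. The labels give neither the dose of IL-6 nor what the controls received. Whether each library had its own culture is not stated, and the p-values therefore cover no more than the spread among these 6 libraries, which may be technical. In the test of the IL-6 effect over all times, this spread also holds any true difference of that effect between times.

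PIM proteins are serine/threonine kinases that lack a regulatory domain and are active once made, so their activity depends largely on how much messenger RNA and protein is present. Their transcription is known to be driven by cytokine receptors through JAK kinases and the transcription factors STAT3 and STAT5, and their messages and proteins are short-lived. They phosphorylate proteins of survival, cell cycle and translation, among them BAD, the CDK inhibitors p21 and p27, and the translation factor eIF4B. PIM1 was found as a common site of proviral insertion in mouse lymphomas, PIM2 is best known from lymphoid and plasma cell tumours, and PIM3 was first described in rat cells.

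PIM1 (ENSG00000137193.14) lies on the plus strand of chromosome 6, from 37170152 to 37175428. PIM2 (ENSG00000102096.9) lies on the minus strand of chromosome X, from 48913182 to 48919024, and PIM3 (ENSG00000198355.5) on the plus strand of chromosome 22, from 49960768 to 49964072. Coordinates are those of the deposited tables, whose build is GRCh38 per the submitters' processing notes, and each value covers the whole gene. No listed gene overlapped PIM1 or PIM2. PIM3 overlapped the microRNA gene MIR6821, on the same strand, for which no library had a value. In GENCODE release 29 the transcripts of the 3 genes shared no run of 50 bases. The longest run in common was 13 bases for PIM1 and PIM2, 23 bases for PIM1 and PIM3, and 17 bases for PIM2 and PIM3.

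The promoter windows are shown because PIM1 passed the test for IL-6 and its paralogues did not, and they let the 3 start regions be read side by side. Each runs from 250 bases before the annotated start to 50 bases after it on the strand of the gene, as given by RefSeq on GRCh38.p14. The positions are chr6:37169902-37170201 (plus strand) for PIM1, chrX:48918975-48919274 (minus strand) for PIM2 and chr22:49960522-49960821 (plus strand) for PIM3. Capitals mark the GC box GGGCGG, known to be bound by SP1-type factors, and the octamer ATGCAAAT, known to be bound by OCT factors, on either strand.
PIM1: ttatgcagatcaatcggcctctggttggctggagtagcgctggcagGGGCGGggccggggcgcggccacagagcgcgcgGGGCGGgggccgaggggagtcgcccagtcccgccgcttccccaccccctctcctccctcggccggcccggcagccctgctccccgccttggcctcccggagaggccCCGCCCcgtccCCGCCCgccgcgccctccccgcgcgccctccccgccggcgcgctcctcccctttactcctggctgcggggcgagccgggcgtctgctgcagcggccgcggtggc
PIM2: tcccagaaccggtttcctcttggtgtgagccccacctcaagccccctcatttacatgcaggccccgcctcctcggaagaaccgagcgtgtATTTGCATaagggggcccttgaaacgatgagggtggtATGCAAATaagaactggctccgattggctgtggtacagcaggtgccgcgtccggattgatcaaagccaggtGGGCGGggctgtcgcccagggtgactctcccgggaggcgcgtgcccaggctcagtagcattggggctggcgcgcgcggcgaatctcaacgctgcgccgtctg
PIM3: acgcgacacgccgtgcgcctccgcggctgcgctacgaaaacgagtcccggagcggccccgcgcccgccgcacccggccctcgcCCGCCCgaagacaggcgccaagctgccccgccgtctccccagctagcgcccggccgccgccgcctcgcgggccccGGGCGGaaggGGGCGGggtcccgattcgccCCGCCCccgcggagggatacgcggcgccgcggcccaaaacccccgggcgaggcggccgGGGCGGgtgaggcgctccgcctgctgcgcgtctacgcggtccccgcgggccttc
The window of PIM1 was 79.7% G or C and held 4 GC boxes, and that of PIM3 was 81.3% G or C and held 5. The window of PIM2 was 62.3% G or C and held 1 GC box and 2 octamers, 160 and 123 bases before the start. No marked matches to different motifs overlapped in these windows. The median over all 35116 promoter windows was 58.7%. A GC box was present in 45.0% of all windows and an octamer in 1.77%. The octamer was added to the search after the PIM2 sequence had been read. The STAT site TTCNNNGAA and the E-box CACGTG, which are present in 7.66% and 7.26% of all windows, were in none of the 3. A match is a description of letters, and a missing match covers only this window.

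The deposited values behave as log2 values centred on each gene, a unit read from the values since no label states it, so a gene's own values sum to about 0 and hold no absolute level. Levels in an arbitrary unit were recovered from the ratios between libraries, and a ratio of levels equals the difference of the deposited log2 values. Whether the authors scaled them by gene length is not given in the sources used here, so the levels of the PIM genes are not compared with one another. The level filters, the variance trend of the test and the summed marker levels do set genes side by side by level, and so depend on this scale. For the PIM genes the recovered values met whole-number ratios to within 1.30e-07 (PIM1), 1.08e-07 (PIM2) and 7.31e-08 (PIM3), against a tolerance of 6e-07. Decoy genes met it by accident only from a mean level of 18.4 upwards, and the PIM genes, at mean levels of 24.0, 25.7 and 57.4, lie in that range. Their residuals therefore do not by themselves fix the absolute levels, whereas ratios between libraries come from the deposited values and do not depend on the match.

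The IL-6 libraries had a value for 22209 to 22733 genes and the control libraries for 22000 to 23108. Library medians over the 13514 tested genes lay between -0.05 and 0.09 on the log2 scale. All 15 monocyte and THP-1 identity markers had a value in every library, SPI1, CSF1R, LYZ and CD68 included, and none passed the limma test for IL-6, with 6 lower and 0 higher at an unadjusted p under 0.05, beside 5.31% and 3.73% of all tested genes. Their median estimate was -0.24, beside -0.03 over all tested genes, and 3 of the 15 estimates were positive. Among them CD14 had an estimate of 2.07 ± 0.85 and CD4 of -0.44 ± 0.13. Of 11 T and NK cell markers CD3E, CD2 and KLRD1 had no value in any library, and the 2 with a recovered level, TRAC and IL7R, summed to 1.97 to 8.65 in IL-6 libraries and 1.30 to 1.66 in control libraries. The difference lay in IL7R. Both tested members were higher at an unadjusted p under 0.05 and neither passed. IL7R had 3.09 ± 0.76 and NKG7, an NK cell granule gene, 0.65 ± 0.14. Of genes with a recovered level the test took those with a mean of 1 or more. IL7R met this through its IL-6 libraries (1.69, 2.62 and 7.49), with 1.06, 0.13 and 0.394 in controls, so the filter favoured a rise. CD247 and GNLY had values in 5 libraries. The 4 of 7 B cell markers with a level summed to 5.36 to 8.15 with IL-6 and 5.10 to 7.42 in controls, with MS4A1 and BLK at no value. Of 8 erythroid and platelet markers the 2 with a level, GP9 and ITGA2B, summed to 6.66 to 9.94 with IL-6 and 5.66 to 15.0 in controls. GP9 made up 14.1 of the highest sum, and HBB, ALAS2, PPBP and PF4 were among those at no value. The 2 of 10 epithelial and fibroblast markers with a level, KRT8 and KRT18, summed to 1.01 to 2.64 with IL-6 and 1.91 to 2.26 in controls, with KRT19, CDH1 and COL1A2 at no value. The part of these signals in the results below was not tested.

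PIM1 was the member that rose with IL-6. Its level stood at 29.1, 34.9 and 61.0 after 6, 24 and 48 h of IL-6, against 6.54, 5.16 and 7.14 in the control libraries. The groups did not overlap, and the lowest IL-6 library stood 4.08-fold above the highest control. The same separation, every IL-6 library above every control, was seen in 3.51% of all tested genes. The mean level was 41.7 ± 17.0 in IL-6 libraries and 6.28 ± 1.02 in controls (SD over the 3 times, 1 library each). In a bulk library more expressing cells and more transcript per cell cannot be told apart.

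**Figure D1:**
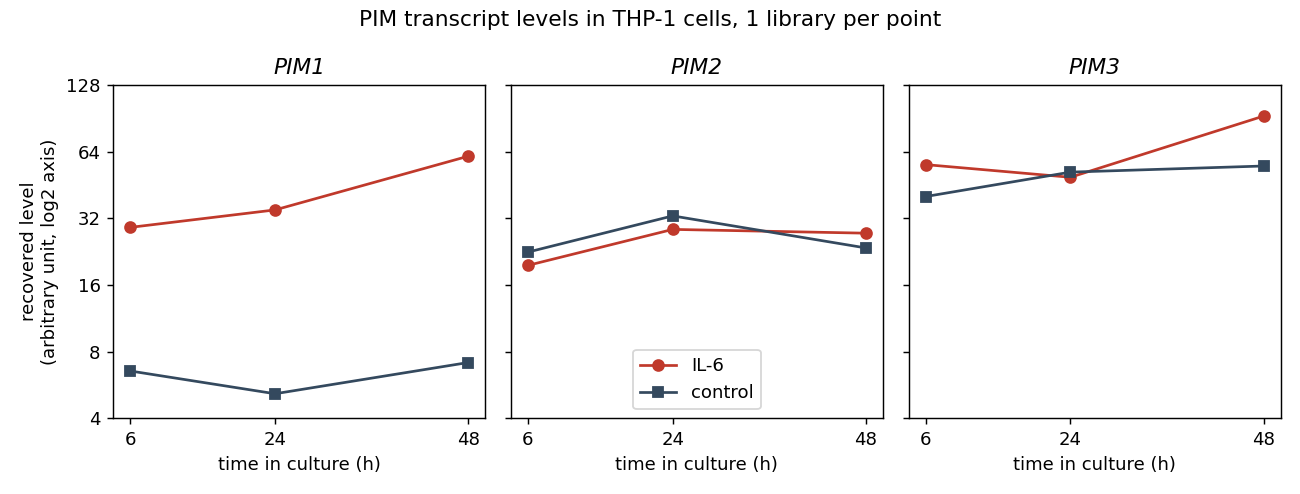
Recovered level of each PIM gene (arbitrary unit, log2 axis) by time in culture, with 1 library per point, IL-6 in red circles and control in blue squares. PIM1 stands at 29.1 to 61.0 in the IL-6 libraries and at 5.16 to 7.14 in the controls, whereas for PIM2 and PIM3 the IL-6 and control lines cross. Panels share an axis, but levels of different genes are not comparable.

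As ratios of IL-6 to control, PIM1 was higher by 4.45-fold after 6 h, 6.77-fold after 24 h and 8.54-fold after 48 h. On the log2 scale these ratios were 2.15, 2.76 and 3.09. Over the 3 pairs limma gave a log2 difference of 2.67 ± 0.18 (limma SE), higher in 3 of 3 pairs. The 3 ratios alone had an SD of 0.48, and the limma SE and interval borrow variance from other genes. The 95% interval was 2.26 to 3.08, with a limma adjusted p of 0.000215. PIM1 was thus among the 33 of 13514 genes (0.244%) that rose past the threshold, an adjusted p under 0.05. It ranked 7 by size of the estimate and 2 by p. The call rests on the variance trend, which lets genes of similar level share a variance, since without it the estimate was also 2.67 but the limma adjusted p was 0.345. Without the trend 0 genes passed, while 462 were higher and 626 lower at an unadjusted p under 0.05.

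PIM2, the paralogue on the X chromosome, showed no shift that the test could detect. Its level stood at 19.6, 28.5 and 27.4 after 6, 24 and 48 h of IL-6, against 22.5, 32.8 and 23.5 in the controls. The ranges overlapped, and the control library of 24 h was the highest of all 6. The log2 ratios of IL-6 to control were -0.19, -0.20 and 0.22. The limma difference was -0.06 ± 0.15 (limma SE, adjusted p = 0.944), with a 95% interval of -0.39 to 0.27. In fold terms this interval runs from 0.764 to 1.21, so it leaves room for small changes either way. The mean level was 25.2 ± 4.83 in IL-6 libraries and 26.3 ± 5.72 in controls (SD, 3 times each).

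PIM3 was higher with IL-6 at 6 and 48 h but not at 24 h, and did not pass the test. Its level stood at 55.9, 49.0 and 92.6 after 6, 24 and 48 h of IL-6, against 40.1, 51.7 and 55.1 in the controls. The groups overlapped through the 24 h IL-6 library, which was below the controls of 24 and 48 h, and the 48 h IL-6 library stood apart from the other 5. The log2 ratios were 0.48, -0.08 and 0.75. The limma difference was 0.38 ± 0.16 (limma SE), or 1.31-fold, with an unadjusted p of 0.0328 and an adjusted p of 0.495. Its 95% interval was 0.04 to 0.73 (1.03- to 1.66-fold). Unlike that of PIM2 this interval lies above 0. It is not adjusted for the number of genes and borrows variance from other genes, and the 3 ratios alone had an SD of 0.42. At an unadjusted p under 0.05, 504 genes (3.73%) were higher and 717 (5.31%) lower, so a p of this size was common in both directions. With equal library medians these counts were 640 and 557. Without the 48 h pair the estimate was 0.20 and without the 24 h pair 0.61, neither of them past the threshold.

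**Figure D2:**
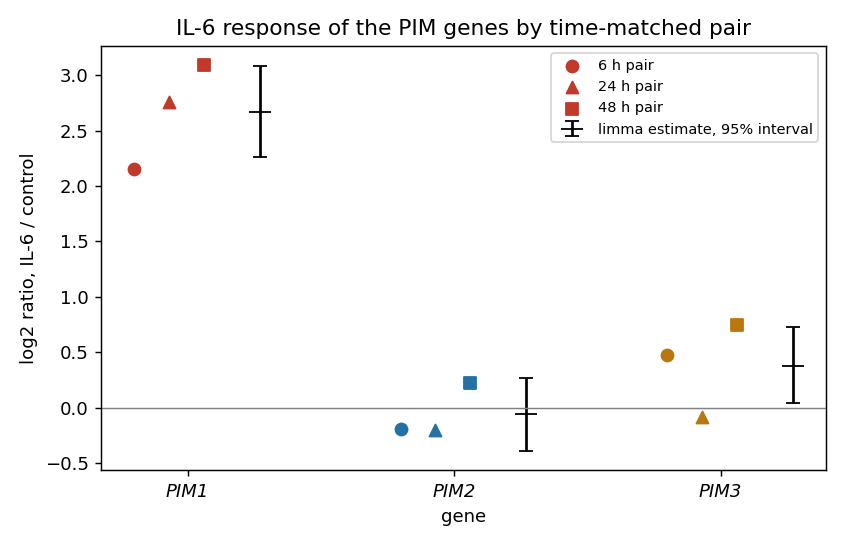
Log2 ratio of IL-6 to control for each PIM gene in the 3 time-matched pairs (circle 6 h, triangle 24 h, square 48 h), with the limma estimate and its 95% interval in black. PIM1 lies between 2.15 and 3.09, PIM2 lies on either side of 0 (-0.20 to 0.22), and PIM3 runs from -0.08 to 0.75.

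Among all tested genes PIM1 was near the upper end of the distribution and the paralogues were not. The estimate of PIM1 was above that of 99.9% of tested genes, that of PIM3 above 92.2% and that of PIM2 above 45.3%. The central 90% of estimates ran from -0.56 to 0.50, with a median of -0.03. At single times the ranking took genes whose mean level over the IL-6 and control library of that time reached 10 or was not recovered. PIM1 ranked 18 of 7307 (6 h), 6 of 7694 (24 h) and 10 of 7620 (48 h). It met this filter only through its IL-6 libraries, as its control levels were 6.54, 5.16 and 7.14. These ranks are therefore descriptions. Genes at least 2-fold higher made up 0.780%, 0.897% and 1.18% of the genes so ranked. Of the PIM genes PIM1 alone was among them at each time. In the same order of times PIM3 ranked 322, 4113 and 158, and PIM2 5959, 5220 and 1231. The log2 ratio of PIM3 was above the 95th percentile at 6 h (0.48 beside 0.46) and at 48 h (0.75 beside 0.49). At 24 h it was not (-0.08 beside 0.51).

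**Figure D3:**
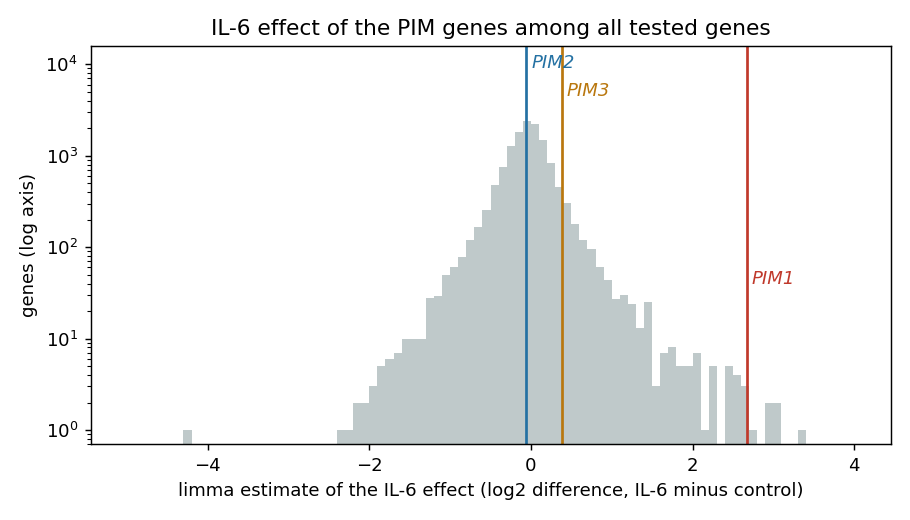
Histogram of the limma estimate of the IL-6 effect (log2 difference, IL-6 minus control) over the 13514 tested genes, with the count on a log axis and vertical lines at the PIM genes. PIM1 at 2.67 stands in the upper tail, PIM3 at 0.38 on the upper flank and PIM2 at -0.06 near the median of -0.03.

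The difference between members was examined within each library, where any scaling between libraries cancels. PIM1 minus PIM2 was 1.26, 0.98 and 1.85 in the IL-6 libraries of 6, 24 and 48 h, against -1.09, -1.98 and -1.03 in the controls. Because each gene is centred on 0, these numbers show how the gap between the genes changed, not which is the more abundant. PIM1 gained 2.73 on PIM2 with IL-6 on the log2 scale, with changes of 2.35, 2.96 and 2.87 in the 3 pairs. PIM1 minus PIM3 was 0.88, 1.33 and 1.22 with IL-6, against -0.80, -1.50 and -1.13 in the controls, a gain of 2.28. In both cases every IL-6 library lay above every control library, and the exact permutation test (two-sided, 3 against 3 libraries) gave p = 0.10, the smallest value that design allows. PIM3 minus PIM2 changed by 0.44, with overlapping groups and an exact permutation p of 0.30. Over the 3 comparisons the Benjamini-Hochberg adjusted exact permutation p was 0.15 for each of the pairs with PIM1 and 0.30 for PIM3 and PIM2.

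**Figure D4:**
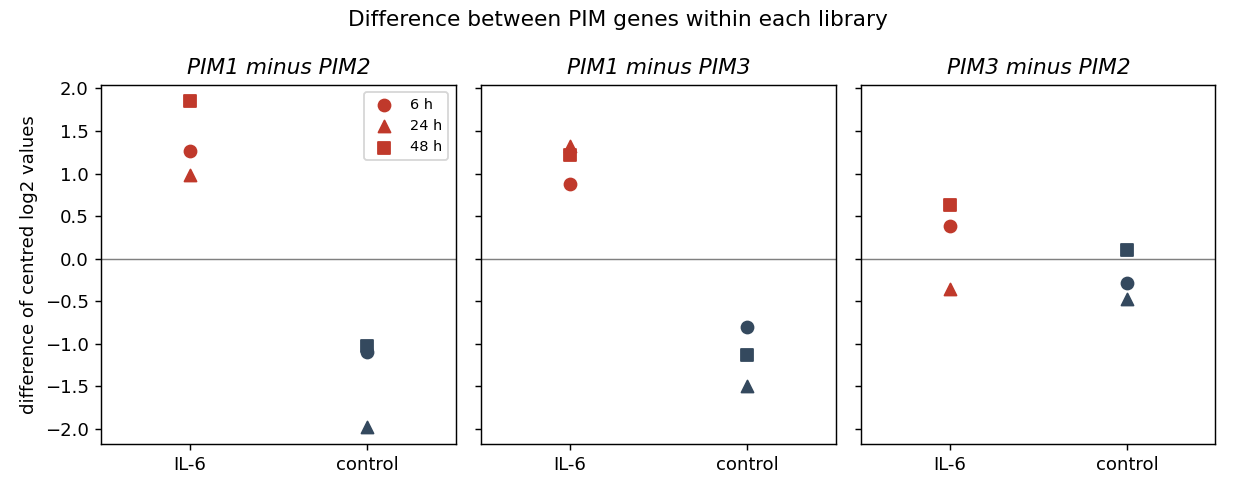
Difference between the centred log2 values of 2 PIM genes within each library, IL-6 left and control right, with the marker giving the time. PIM1 minus PIM2 and PIM1 minus PIM3 lie above 0 in all 3 IL-6 libraries and below 0 in all 3 controls, and PIM3 minus PIM2 overlaps between the groups.

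The size of the PIM1 response at 6 h could not be separated from the later response. The estimate at 6 h minus the mean of 24 and 48 h was -0.77 ± 0.37 on the log2 scale (limma adjusted p = 1.0, unadjusted p = 0.0488), in a model with a single residual degree of freedom, in which 0.237% of genes passed in either direction. The same difference was -0.20 ± 0.37 for PIM2 and 0.14 ± 0.35 for PIM3 (limma adjusted p = 1.0 for each). Within the IL-6 libraries PIM1 was 1.07 log2 units higher at 48 h than at 6 h, and within the controls 0.13. With 1 library per condition these last differences have no replicate check.

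Time in culture moved none of the 3 genes past the threshold. At 24 h against 6 h, where 1.92% of genes passed in either direction, PIM2 had a difference of 0.54 ± 0.18 (limma adjusted p = 0.161), PIM1 of -0.04 ± 0.23 and PIM3 of 0.09 ± 0.19, which was -0.01 with equal library medians. PIM2 was higher at 24 h than at 6 h by 0.54 within the IL-6 libraries and by 0.55 within the controls. At 48 h against 6 h, where 3.92% of genes passed, PIM3 had 0.59 ± 0.19 (limma adjusted p = 0.110), PIM1 0.60 ± 0.23 (limma adjusted p = 0.161) and PIM2 0.27 ± 0.18 (limma adjusted p = 0.419). For PIM3 the controls of 48 and 6 h differed by 0.46 and the IL-6 libraries by 0.73. Between 48 h and 24 h, where 0.533% of genes passed, the differences were 0.64 for PIM1, 0.51 for PIM3 and -0.27 for PIM2, and none passed. At an unadjusted p under 0.05 limma gave 1 of the 3 genes at 24 h against 6 h (PIM2), and 2 (PIM1 and PIM3) in each of the comparisons with 48 h. Among all tested genes the share at that p was 17.6% at 24 h against 6 h, 21.6% at 48 h against 6 h and 11.8% at 48 h against 24 h, and 3 genes are too few to be set apart from it.

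Upstream of the PIM genes, 1 of 14 tested components of the IL-6 receptor and JAK-STAT pathway rose and none fell, beside 0.244% and 0.0074% of all genes. The 1 was STAT3, the transcription factor activated by the receptor, at 0.78 ± 0.12 (limma adjusted p = 0.0271). Its call was lost without the 24 h pair, without the 48 h pair, and under 4 other settings (no level filter, no variance trend, non-robust empirical Bayes and no time term). The median of the list was -0.05, beside -0.03 over all tested genes. STAT5A and STAT5B, the other STAT factors known to act on PIM genes, had estimates of -0.20 ± 0.25 and -0.09 ± 0.19, and neither passed. SOCS3, the feedback inhibitor of the receptor, had an estimate of 2.54 ± 0.48 with levels of 3.19, 2.58 and 8.48 in IL-6 libraries against 0.715, 0.984 and 0.509 in controls, and did not pass (limma adjusted p = 0.111). PIAS3, an inhibitor of STAT3, had -0.53 ± 0.21, SOCS1, another feedback inhibitor, 0.42 ± 0.47, and IL6R, the receptor's own subunit, -0.28 ± 0.12.

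Of 24 tested STAT3 and STAT5 target genes besides PIM1, 3 rose and none fell, beside 0.244% and 0.0074% of all tested genes. The list median was 0.34, beside -0.03 over all tested genes. In 8 of the 24 every IL-6 library lay above every control, and in none below, against 3.51% and 5.71% of all tested genes. SOCS3, among these 8, met the mean level of 1 needed for testing only through its IL-6 libraries. Its control levels were 0.715, 0.984 and 0.509. BCL3, which encodes a nuclear IκB protein, had levels of 18.7, 32.4 and 52.0 with IL-6 at 6, 24 and 48 h, against 3.51, 5.29 and 9.68 in controls. Unlike PIM1, BCL3 also climbed through the control series, and its 3 ratios on the log2 scale were 2.41, 2.62 and 2.42. FCGR1A (0.65 ± 0.10), which shares reads with near-identical copies, and STAT3, already counted in the upstream list, were the others that rose. BCL3 lost its call without the variance trend and without the time term, and FCGR1A without the 6 h or the 24 h pair and under 4 other settings. ICAM1 (2.99 ± 1.37), IL4R (1.05 ± 0.23) and BCL6 (0.71 ± 0.45) had positive estimates that did not pass. The log2 ratios of ICAM1 were 5.75, 0.11 and 3.12 in order of time, the first of them against a very low 6 h control level of 0.0451. CISH and SOCS2, textbook STAT5 targets, had 0.46 ± 0.16 and -0.07 ± 0.47.

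No gene for a PIM substrate passed the limma test, of 23 tested, with 2 higher and 1 lower at an unadjusted p under 0.05, and the list median was -0.04. Among all tested genes 3.73% were higher and 5.31% lower at that p, and counts this small do not set the substrates apart in either direction. The largest estimate was that of CDKN1A, which encodes the CDK inhibitor p21, at 0.67 ± 0.16 (limma adjusted p = 0.197). Its levels were 16.1, 66.9 and 61.4 with IL-6 at 6, 24 and 48 h, against 13.8, 36.3 and 33.0 in controls, so the pairs were closest at 6 h. Without the 6 h pair CDKN1A passed the threshold. CDC25C, a cell cycle phosphatase gene, had -0.56 ± 0.19, EIF4EBP1, which encodes a translation repressor, 0.37 ± 0.12, and AKT1S1, which encodes an inhibitor of mTORC1, 0.34 ± 0.20. BAD had 0.03 ± 0.12 and EIF4B -0.15 ± 0.11. These values concern the messages of the substrates, and phosphorylation was not measured.

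A list of 9 genes held chaperones, the ubiquitin ligase STUB1 and PP2A subunits, which are known to act on PIM protein, and also EIF4E. None of the 9 passed in limma (0 at an unadjusted p under 0.05 as well), and all estimates lay between -0.14 and 0.19. PPP2CA, a catalytic subunit of PP2A, had the highest, and PPP2R1A, its scaffold, the lowest. HSP90AB1, a chaperone that stabilises PIM1, had 0.01 ± 0.11. Of 23 other serine/threonine kinase genes of growth, survival and early response, none passed in limma, with 1 higher and 0 lower at an unadjusted p under 0.05, beside 3.73% and 5.31% of all tested genes, and the median was 0.04. Their estimates ran from -0.73 for PLK2 to 0.68 for MAP3K8, all below the 2.67 of PIM1. TRIB3, a pseudokinase gene that passed without the 6 h pair, had 0.52 ± 0.15, PASK, which encodes a PAS domain kinase, -0.31 ± 0.25, and the AKT genes lay between -0.19 and 0.25.

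**Figure D5:**
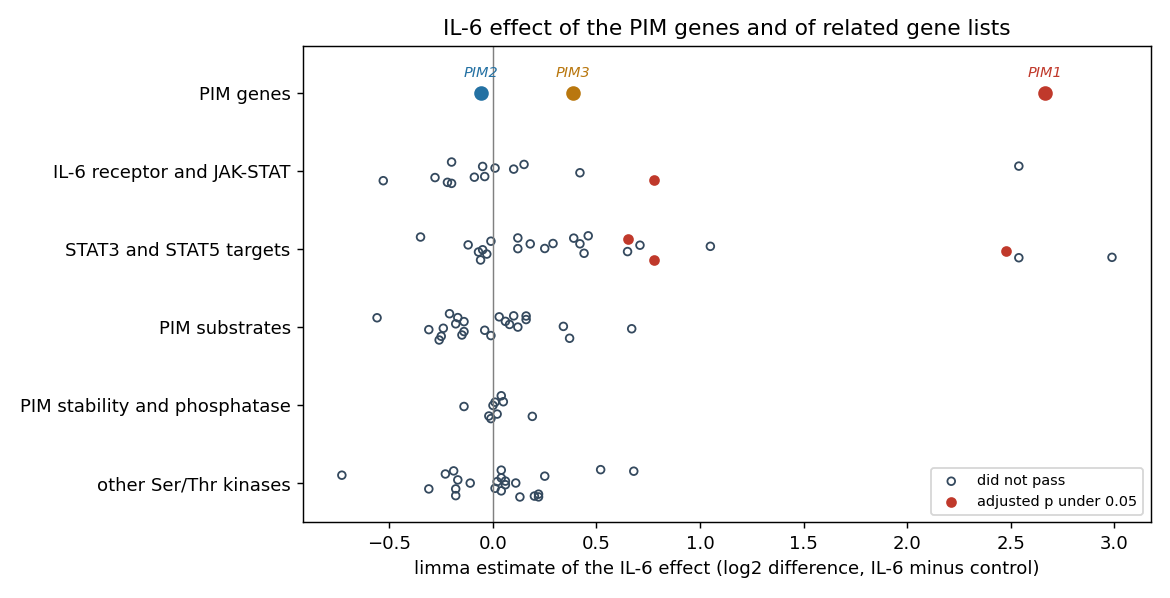
Limma estimate of the IL-6 effect (log2 difference, IL-6 minus control) for the PIM genes and the tested members of the related lists, 1 point per gene. In the list rows red points passed (adjusted p under 0.05) and open points did not, and in the top row colour marks the gene. PIM1 at 2.67 lies to the right of every substrate, stability and kinase gene shown, and BCL3 at 2.48 is the called STAT target nearest to it. ICAM1 at 2.99 lies further right but did not pass, and its ratios ran from 0.11 to 5.75, the latter against a very low control level.

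Of the 12 tested protein-coding genes nearest to the PIM genes, 2 on each side, none passed in limma and 1 (MLC1) had an unadjusted p under 0.05, beside 9.04% of all tested genes. Around PIM1 these were FGD2 and MTCH1 on one side and TBC1D22B and RNF8 on the other, with gaps of 82.3 to 184 kb and estimates of -0.16 to 0.31. The log2 ratios of FGD2 were 0.02, -0.19 and 1.10 in order of time. The nearest to PIM2, SLC35A2 and OTUD5 at 1.22 and 3.0 kb, had -0.27 ± 0.16 and -0.14 ± 0.20, and PQBP1 and GRIPAP1 had 0.06 ± 0.11 and -0.27 ± 0.14. Near PIM3, MLC1 had -0.44 ± 0.15 (limma adjusted p = 0.395), CRELD2 -0.02 ± 0.10, ALG12 -0.15 ± 0.23 and TRABD 0.01 ± 0.12.

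By pattern across the 6 libraries, the protein-coding genes most like PIM1 among 8771 compared were TMEM176A (Pearson r = 0.988), HSD11B1 (0.986), NPIPA5 (0.979), METTL7B (0.972) and ANXA3 (0.963). TMEM176A encodes a membrane protein, HSD11B1 an enzyme that regenerates active glucocorticoid, and ANXA3 an annexin. All of them except NPIPA5 (0.40 ± 0.21), a member of a family of duplicated genes whose reads can be shared, were past the threshold for IL-6, which follows in part from the choice, since the pattern of PIM1 over these libraries is mainly its IL-6 difference. The genes most like PIM2 were BFAR (0.995), RRAGA (0.995) and COL9A3 (0.993), with IL-6 estimates of -0.02, -0.01 and -0.09. Those most like PIM3 were C11orf24 (0.977), NBEAL2 (0.975) and MED8 (0.973), with IL-6 estimates of 0.15, 0.26 and 0.14. Between the members themselves r was 0.664 for PIM1 and PIM3, -0.082 for PIM1 and PIM2, and 0.172 for PIM2 and PIM3. With 6 libraries that share culture times and scaling, these correlations are descriptions.

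The messages of all 3 genes hold the AU-rich pentamer ATTTA, known from short-lived transcripts. It occurs 3 times in the longest annotated PIM1 transcript of 2650 bases, 2 times in the 2075 bases of PIM2 and 4 times in the 2369 bases of PIM3. A word this short also occurs by accident, and no count over all transcripts is given here. These counts therefore do not set the 3 genes apart from others.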

How the data were processed

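Per the labels' protocols, a SMART-seq kit for very small inputs served to amplify the RNA and Nextera XT to make the libraries, a route that does not mark strand. The aligner, counter and scaling are not named in the sources used here. Per the file headers the value column is a processed signal, with no unit or scale given. The deposited values were read as log2 values centred on each gene, since the mean of a gene over its libraries was within 8.4e-08 of 0 and ratios of whole numbers appeared on that scale. Of 60325 genes 17388 had 6 values. No read counts are given, so depth and counting error are unknown. After 1 offset per library was removed, values stood in ratios of whole numbers, which gave levels for 90.3% of the 17388 genes, with the step set to 0.001, an arbitrary unit. Of 2000 decoy genes 153 were matched by accident.

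A linear model with terms for time point and IL-6 was fitted to the 13514 genes whose mean level reached 1 or was not recovered, using all 6 libraries, in limma 3.58.1 (R 4.3.3) with robust empirical Bayes, a trend on level and Benjamini-Hochberg adjustment at 0.05. It has 2 residual degrees of freedom. In the trend the 1687 genes with no recovered level were all given a level of 100, STAT3, FCGR1A, HSD11B1 and METTL7B among them. The fit and the level recovery were tested on simulated data. Alternatives are given in the closing section. Members and lists were chosen with earlier results of these data known. Named genes are the PIM genes, list members past the threshold and up to 4 others of each list with the largest absolute estimates, the nearest tested neighbours, and the genes of highest Pearson r at a mean level of 5 or more. STAT5A, STAT5B, CISH, SOCS2, BAD, EIF4B, HSP90AB1, the AKT genes and the markers named were picked outside this rule after their values were seen. Promoters are from RefSeq and transcripts from GENCODE release 29. Gene symbols of all lists matched the tables.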

Additional observations from a re-analysis of the deposited data

Results flagged for a closer look

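PIM2 and PIM3 had log2 ratios of IL-6 to control of opposite sign at different times. For PIM2 the ratio was -0.19 at 6 h and -0.20 at 24 h, and 0.22 at 48 h. For PIM3 it was 0.48 at 6 h and 0.75 at 48 h, and -0.08 at 24 h. The difference between single times was not tested, as each rests on 1 library per condition. The effect at 6 h against the later mean, which was tested, gave a limma adjusted p of 1.0 for both genes.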

How the results depend on the processing

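The estimate of PIM1 for IL-6 was positive under all 10 alternatives, from 2.46 to 2.93, and passed in 9. Without the variance trend it was 2.67 with an adjusted p of 0.345, and the cause was not tested. That of PIM2 ran from -0.20 to 0.01, turning to 0.01 without the 6 h pair and to 0.01 without the 24 h pair, and that of PIM3 from 0.20 to 0.61, and neither passed under any. PIM3 at 24 h against 6 h turned to -0.01 with equal library medians. Leaving out 1 pair gave 2.61 to 2.92 for PIM1 minus PIM2, 2.01 to 2.59 for PIM1 minus PIM3 and 0.33 to 0.60 for PIM3 minus PIM2, and the sign-flip permutation within pairs gave its smallest exact p, 0.25, for all 3. The number of genes past the threshold in limma, 33 higher and 1 lower (AKAP7), was 14 and 0 with no level filter, 0 and 0 without the trend, 13 and 0 with non-robust empirical Bayes and 4 and 0 with no time term. At an unadjusted p under 0.05 these settings gave 787, 626, 678 and 336 lower genes. It was 4 lower with log2(level + 1) and 7 lower at a mean level of at least 5. It was 84 higher and 35 lower without the 6 h pair, 16 and 1 without the 24 h pair, and 29 and 4 without the 48 h pair. Of the 5 genes most like PIM1, 3 were shared when genes of mean level 1 or more were compared. No paired analysis by replicate number was possible because each condition has 1 library, and the time point served as the block. Depth is unknown, so no limit of detection can be given. The 95% intervals of PIM2 and PIM3 borrow variance from other genes, so they do not set the sizes of change that the 3 pairs alone leave possible.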
